A study of Mus musculus with 2 samples.

Results

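The circadian clock genes examined here were the 10 core loop genes *Clock*, *Arntl*, *Per1*, *Per2*, *Per3*, *Cry1*, *Cry2*, *Nr1d1*, *Nr1d2* and *Dbp*, taken by gene symbol from a table of 47069 Ensembl genes. All 10 were found and all had a mean above 1 CPM (the count of a gene scaled to the total count of its library). The data are bulk poly(A) RNA-seq of primary pituitary cells of the mouse, in 2 samples, one per stabilizer. Whole pituitaries of randomly cycling female C57BL/6 mice aged 10 to 12 weeks were dissociated acutely with collagenase and pancreatine, and 500000 to 700000 cells pooled from 5 glands made a sample. One sample was placed directly in RNA-Best, a buffer meant to stabilize RNA inside intact single cells, and the other into RNAlater, a common RNA stabilizer that does not keep single cells and that served as the reference. The mice were kept on a light and dark cycle. The hour at which the glands were taken is not given in the sources used here.

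The mammalian clock is a loop of transcription and feedback that runs in nearly every cell with a period of about a day. The CLOCK and ARNTL (BMAL1) proteins pair and bind E-box sequences in the *Per*, *Cry*, *Nr1d* and *Dbp* genes. PER and CRY proteins then return to the nucleus and repress that pair. The NR1D receptors (REV-ERBs) repress *Arntl* through ROR elements, and DBP acts on D-box sequences. The pituitary holds such a clock, and *Per1* is in addition a gene that many cells switch on quickly after a stimulus. The mRNAs of the loop peak at different hours, so their levels relative to each other depend on when a tissue is sampled.

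Each stabilizer was represented by 1 library, so the differences below are without replicates and were not tested. The stabilizer, the cells of each pool and the preparation of each library cannot be told apart as sources of a difference. The same holds for the hour at which each pool was collected, which is not given. The RNA-Best library held 53915047 counts and the RNAlater library 44917492. Intervals given below are at 95% and cover counting error alone. PCR copies of a molecule are not independent reads. As a check of the tissue, all 8 pituitary markers (7 genes for hormones, a hormone precursor or hormone subunits, and *Pou1f1*) were counted in both libraries. Their summed level was 307145 CPM with RNA-Best against 239173 CPM with RNAlater.

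The promoters of some of these genes hold letters that match sequences through which the loop acts. Binding was not measured. RefSeq start windows (build GRCm38.p6, 250 bases before to 50 after an annotated start) were matched for 9 of the 10 genes, the exception being *Per2*, and gave 13 windows. They were searched on both strands for the E-box CACGTG, the D-box TTANGTAA, the ROR element TAGGTCA and the cAMP response element TGACGTCA, and no match overlapped another. The bases before the start are shown for *Per1*, *Nr1d1*, *Per3* and *Cry1*. *Per1* and *Nr1d1* had the lowest ratios of RNA-Best to RNAlater, and *Per3* held 2 D-boxes. *Cry1* was the member whose libraries differed least when counts were scaled to the library total. A stretch of 30 bases is shown for the ROR element of *Arntl*. Capitals mark the matches, and each sequence runs 5′ to 3′ on the strand of its gene.
*Per1* (plus strand, chr11:69098699-69098948): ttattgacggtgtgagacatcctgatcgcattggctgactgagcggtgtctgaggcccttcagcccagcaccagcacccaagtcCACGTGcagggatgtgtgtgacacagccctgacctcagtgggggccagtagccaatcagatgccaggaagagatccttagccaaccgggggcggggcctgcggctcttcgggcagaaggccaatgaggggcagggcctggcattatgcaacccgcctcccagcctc
*Nr1d1* (minus strand, chr11:98775378-98775627): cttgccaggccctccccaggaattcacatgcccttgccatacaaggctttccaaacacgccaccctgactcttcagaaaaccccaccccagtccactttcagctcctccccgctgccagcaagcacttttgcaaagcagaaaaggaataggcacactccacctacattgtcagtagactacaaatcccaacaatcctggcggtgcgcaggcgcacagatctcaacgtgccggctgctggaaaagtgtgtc
*Per3* (minus strand, chr4:151044666-151044915): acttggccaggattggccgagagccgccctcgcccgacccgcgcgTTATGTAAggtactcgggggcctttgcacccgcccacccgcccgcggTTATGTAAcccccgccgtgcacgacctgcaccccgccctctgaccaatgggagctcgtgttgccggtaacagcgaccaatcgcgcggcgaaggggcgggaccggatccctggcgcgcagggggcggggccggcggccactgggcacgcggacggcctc
*Cry1* (minus strand, chr10:85185055-85185304): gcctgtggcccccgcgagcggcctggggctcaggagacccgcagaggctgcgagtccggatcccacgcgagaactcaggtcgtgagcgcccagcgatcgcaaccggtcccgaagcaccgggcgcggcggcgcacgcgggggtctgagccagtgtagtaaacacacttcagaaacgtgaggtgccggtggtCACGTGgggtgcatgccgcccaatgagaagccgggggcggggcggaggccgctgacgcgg
*Arntl* (plus strand, chr7:113207530-113207559): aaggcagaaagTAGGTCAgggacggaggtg

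An E-box lay 161 to 166 bases before the upstream annotated start of *Per1* and 55 to 60 bases before the start of *Cry1*. The window of the downstream start of *Per1* held no match. The D-boxes of *Per3* lay 198 to 205 and 151 to 158 bases before its start. The ROR element of *Arntl* lay 31 to 37 bases after its downstream annotated start, and the window of its upstream start held no match. No letters of the 4 motifs were found in the windows of *Clock*, *Cry2*, *Nr1d1*, *Nr1d2* and *Dbp*, which says nothing of sites elsewhere in these genes. Among 32851 windows of the same length, 7.15% held the E-box, 2.32% the D-box, 2.61% the ROR element and 1.79% the cAMP response element.

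All 10 clock genes had a log2 ratio of RNA-Best to RNAlater below 0 (with 0.5 CPM added to each value), against a background of 67.0% of the 16504 genes whose mean reached 1 CPM. That share differed by transcript length. It was 42.1% at 1 to 2 kb, the length of *Dbp*, 88.6% at 4 to 6 kb, that of the *Per* genes, and 95.2% at 6 to 10 kb, that of *Clock*. For 8 of the 10 the counting interval lay wholly below 0, against 51.2% of all genes. *Per1* and *Nr1d1* were at least 2-fold lower in RNA-Best, 2 of 10 against 4.99% of all genes, and both intervals lay wholly beyond 2-fold, as did those of 3.45% of all genes. No member was at least 2-fold higher, where 0.273% of all genes were. The median log2 ratio of the members was -0.50 and that of all genes -0.18. Below the median of all genes lay 7 members, where 50.0% of genes lie by definition.

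These directions depend on how the libraries are scaled. Scaling by edgeR's TMM, by DESeq2 size factors or by the total without *Prl* and *Gh*, which took 29.7% of counts with RNA-Best and 23.2% with RNAlater, raised every log2 ratio by 0.17, 0.18 and 0.13 before the 0.5 CPM was added. The ratios of *Cry1*, *Nr1d2* and *Dbp* then turned positive under TMM and DESeq2, and that of *Cry1* under all 3. The other 7 members stayed below 0 under all 3 scalings, where 51.4%, 50.4% and 55.5% of all genes were below 0, and lay below the median of all genes under each. No member was then past 2-fold, *Per1* standing at -0.89, -0.88 and -0.94 and *Nr1d1* at -0.89, -0.87 and -0.93, while 2.65%, 2.56% and 3.47% of all genes were at least 2-fold lower.

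**Figure D1:**
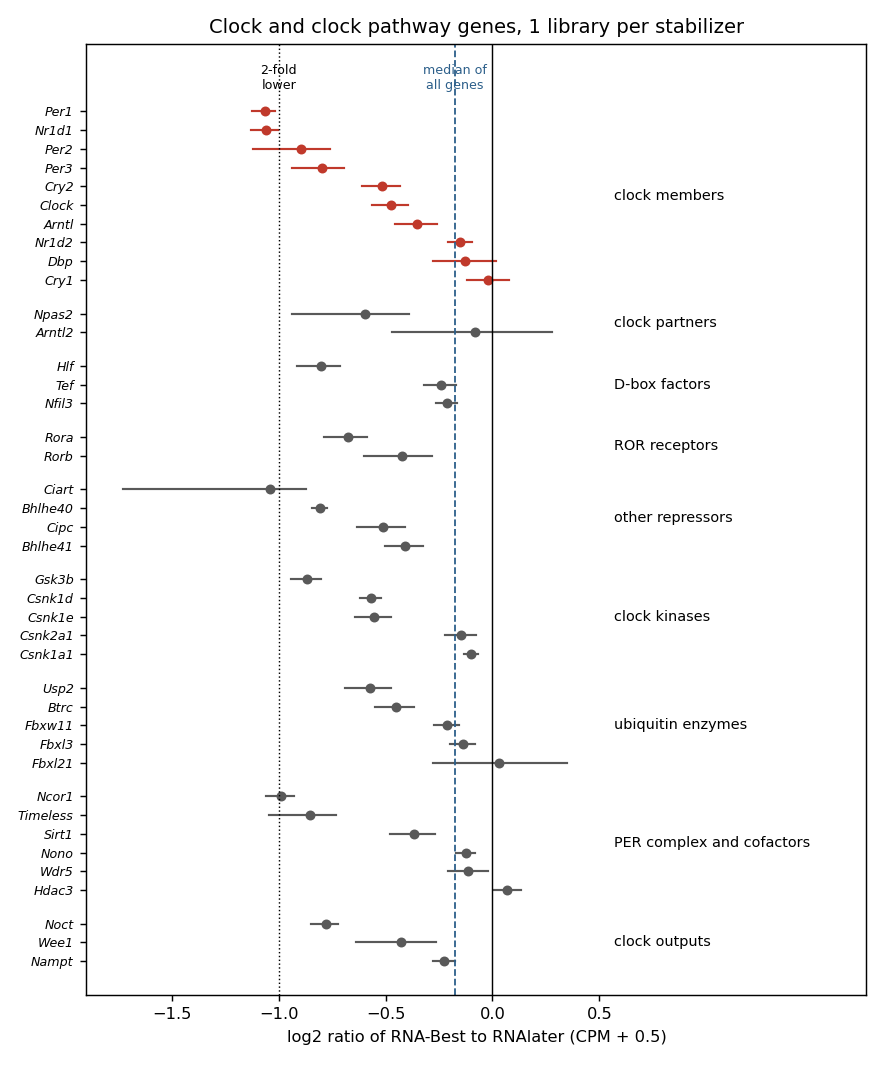
Log2 ratio of RNA-Best to RNAlater (horizontal axis, 0.5 CPM added) for the 10 clock genes (red) and 30 other genes of the clock pathway (grey), 1 library per stabilizer. Points are ratios and bars are 95% counting intervals computed without the added 0.5 CPM. *Per1* and *Nr1d1* lie left of the dotted line at 2-fold lower, *Cry1* lies at -0.02, and the dashed line marks the median of all genes at -0.18.

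The activators of the loop were moderately lower in RNA-Best under column total scaling. This did not hold relative to genes of like length (below), where *Clock* stood at 0.32 and *Arntl* at -0.06. *Clock* (ENSMUSG00000029238.11, chromosome 5, 76209868-76304792, GRCm38) encodes the larger partner of the activating pair. It was counted at 39.7 CPM with RNA-Best against 55.5 CPM with RNAlater (log2 ratio -0.48, interval -0.57 to -0.40). *Arntl* (ENSMUSG00000055116.7, chromosome 7, 113207465-113314126) encodes the other partner and had 30.2 and 38.7 CPM (log2 ratio -0.35, interval -0.46 to -0.26). Their intervals overlapped, and the pair was not ordered by ratio. The paralogs that can take their places were scarce. *Npas2*, which can stand in for *Clock*, had 3.68 and 5.81 CPM, and *Arntl2* had 2.39 and 2.56 CPM. Per kb of the longest transcript, *Npas2* reached 0.213 of the level of *Clock* with RNA-Best (interval 0.183 to 0.246) and 0.241 with RNAlater (0.211 to 0.274), and *Arntl2* 0.105 and 0.0880 of the level of *Arntl*. The first of these depends on the length used, being 0.763 and 0.864 by the median length of the annotated transcripts.

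The 3 *Per* genes, which encode the period repressors, had among the lowest ratios of the list. *Per1* (ENSMUSG00000020893.17, chromosome 11, 69095217-69109960) had 4226 counts, or 78.4 CPM, in RNA-Best and 7397 counts, or 165 CPM, in RNAlater (log2 ratio -1.07, interval -1.13 to -1.02). *Per2* (ENSMUSG00000055866.9, chromosome 1, 91415982-91459324) was the weakest member, with 7.59 and 14.6 CPM (log2 ratio -0.90, interval -1.12 to -0.76). *Per3* (ENSMUSG00000028957.12, chromosome 4, 151003652-151044665), the paralog least needed for the rhythm, had 17.7 and 31.1 CPM (log2 ratio -0.80, interval -0.94 to -0.70). All 3 had intervals wholly below 0. Per kb, *Per1* stood at 12.9 times the level of *Per2* with RNA-Best (11.7 to 14.3) and at 14.1 times with RNAlater (13.0 to 15.3). The log2 change of that ratio was -0.13, with an interval from -0.32 to 0.06 that includes 0. For *Per3* to *Per2* the change was 0.12 (-0.09 to 0.34). The ratio of *Per1* to *Per3*, added after the values were seen, was 5.7 and 6.8 per kb, a log2 change of -0.26 (-0.39 to -0.12) that does not include 0. *Per1* thus made up 79.8% of the summed *Per* level per kb in RNA-Best and 82.1% in RNAlater. The size of these ratios and shares depends on the length used. By the median length of the annotated transcripts *Per1* stood at 7.79 and 8.53 times the level of *Per2*.

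The cryptochrome genes encode the partners with which PER proteins repress the activators, and the pair differed in ratio. *Cry1* (ENSMUSG00000020038.9, chromosome 10, 85131700-85185064) was nearly level at 34.8 CPM with RNA-Best against 35.3 CPM with RNAlater (log2 ratio -0.02, interval -0.12 to 0.08). *Cry2* (ENSMUSG00000068742.11, chromosome 2, 92403646-92434043) had 36.7 and 52.7 CPM (log2 ratio -0.52, interval -0.61 to -0.43). The ratio of *Cry2* to *Cry1* per kb was 0.803 with RNA-Best (0.753 to 0.856) and 1.13 with RNAlater (1.06 to 1.21), a log2 change of -0.50 (-0.63 to -0.37). Being taken within a library, this change does not depend on how the libraries were scaled. Which of the pair was the more abundant in RNAlater depends on the transcript length used, since *Cry2* was below *Cry1* when the exon union or the median transcript length was used.

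Among the paralog pairs compared, the largest difference was that of the REV-ERB genes, which encode nuclear receptors that repress *Arntl*. *Nr1d1* (REV-ERBα, ENSMUSG00000020889.11, chromosome 11, 98767932-98775333) had 3116 counts, or 57.8 CPM, in RNA-Best and 5431.5 counts, or 121 CPM, in RNAlater (log2 ratio -1.06, interval -1.13 to -1.0). *Nr1d2* (REV-ERBβ, ENSMUSG00000021775.10, chromosome 14, 18204054-18239127) had 94.7 and 105 CPM (log2 ratio -0.15, interval -0.21 to -0.09). The ratio of *Nr1d1* to *Nr1d2* per kb was 1.05 with RNA-Best (1.0 to 1.09) and 1.97 with RNAlater (1.90 to 2.05), a log2 change of -0.91 (-1.0 to -0.83). Their order, too, depends on the length used, as *Nr1d2* came out higher in both libraries by median transcript length. Against *Arntl*, whose transcription it represses, *Nr1d1* stood at 2.81 times the level per kb with RNA-Best (2.64 to 2.98) and 4.58 times with RNAlater (4.34 to 4.84), a log2 change of -0.71 (-0.82 to -0.59).

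A neighbouring gene shares sequence with *Nr1d1*. Exons of *Thra*, the thyroid hormone receptor alpha gene on the opposite strand, overlap 263 bases of *Nr1d1* exons, 8.55% of their union, and the strand setting of the authors' counting was not stated, so reads there cannot be assigned with certainty. *Thra* itself was counted at 112 CPM with RNA-Best against 119 CPM with RNAlater (log2 ratio -0.09). A larger part of *Dbp*, 539 bases or 18.0% of its exon union, overlaps *Sphk2* on the opposite strand, which had 27.0 and 32.1 CPM (log2 ratio -0.25). *Cry2* shares 295 bases with *D930015M05Rik*, at 1.54 and 1.29 CPM.

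*Dbp* (ENSMUSG00000059824.10, chromosome 7, 45705088-45710203) encodes an activator that carries the rhythm to output genes through D-boxes. It had 14.7 CPM with RNA-Best against 16.1 CPM with RNAlater, and its log2 ratio of -0.13 had an interval (-0.28 to 0.02) that includes 0. Relative to *Arntl* its level per kb was 1.05 with RNA-Best (0.968 to 1.15) and 0.901 with RNAlater (0.825 to 0.983), a log2 change of 0.23 (0.05 to 0.40), opposite in sign to that of *Nr1d1* to *Arntl*. That sign does not hold relative to genes of like length (below), where *Dbp* stood at -0.13 and *Arntl* at -0.06.

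**Figure D2:**
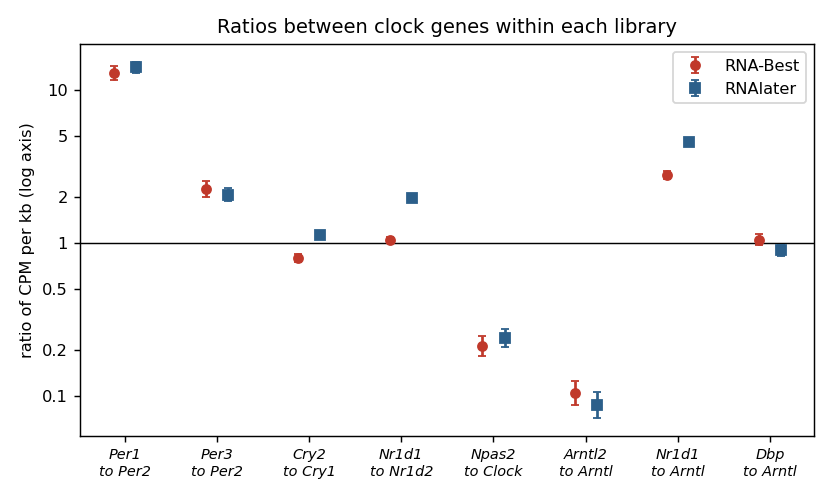
Ratio of CPM per kb between 8 pairs of clock genes (vertical log axis) in RNA-Best (red circles) and RNAlater (blue squares), 1 library each, with 95% counting intervals as bars. *Nr1d1* to *Nr1d2* stands at 1.05 and 1.97 and *Cry2* to *Cry1* at 0.803 and 1.13, while the intervals of *Per1* to *Per2* overlap.

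Ordered by ratio, the members ran from *Per1* through *Nr1d1*, *Per2*, *Per3*, *Cry2*, *Clock*, *Arntl*, *Nr1d2* and *Dbp* to *Cry1*. Gaps beyond counting error separated *Per3* from *Cry2* and *Arntl* from *Nr1d2*, and the intervals of all other neighbours overlapped. Genes further apart in the order can differ where neighbours do not, as the intervals of *Per1* and *Per3* did not overlap. The first gap does not hold relative to genes of like length, where *Per3* stood at -0.25 beside *Cry2* at -0.22. *Arntl* at -0.06 stayed below *Nr1d2* at 0.24 there, but *Clock*, below *Arntl* in the order above, was the highest member at 0.32.

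Levels per kb of the longest transcript gave the order of abundance. In RNAlater *Nr1d1* stood highest at 44.4 CPM per kb, followed by *Per1* at 35.3, *Nr1d2* at 22.5, *Cry2* at 13.3, *Cry1* at 11.7, *Arntl* at 9.70, *Dbp* at 8.74, *Clock* at 5.69, *Per3* at 5.18 and *Per2* at 2.5. The only neighbours with overlapping intervals there were *Arntl* and *Dbp*, though the interval of the ratio of *Dbp* to *Arntl* (0.825 to 0.983) lay below 1. In RNA-Best *Nr1d1* at 21.2 and *Nr1d2* at 20.3 CPM per kb had overlapping intervals, and *Per1* came after them at 16.8. The interval of the ratio of *Nr1d1* to *Nr1d2*, from 1.0005, lay just above 1. *Cry1* at 11.5, *Cry2* at 9.23, *Dbp* at 7.98, *Arntl* at 7.56, *Clock* at 4.08, *Per3* at 2.94 and *Per2* at 1.3 came next, with *Dbp* and *Arntl* overlapping. By these lengths *Per1* stood above *Nr1d2* in RNAlater and below it in RNA-Best. The order depends on the length used. By median transcript length *Nr1d2*, *Cry1*, *Nr1d1* and *Per1* led in this order in both libraries, with *Per1* below *Nr1d2* in each (19.5 against 78.3 CPM per kb in RNA-Best, 40.9 against 86.9 in RNAlater). *Per3* and *Per2* were the weakest genes in both libraries by the longest transcript, the median length and the exon union.

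**Figure D3:**
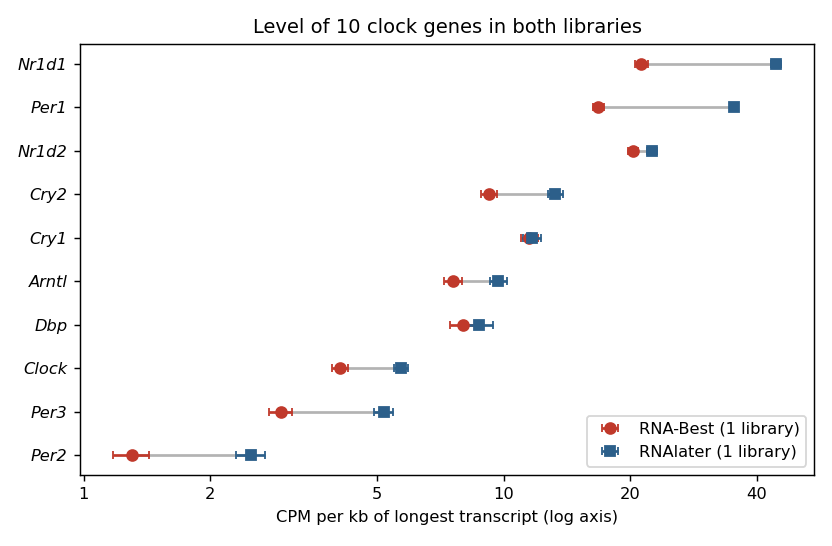
Level of each clock gene in CPM per kb of its longest annotated transcript (horizontal log axis) in RNA-Best (red circles) and RNAlater (blue squares), 1 library each, with 95% Poisson intervals of the count as bars. *Nr1d1* and *Per1* show the widest gaps, 21.2 against 44.4 and 16.8 against 35.3 CPM per kb, and *Cry1* the narrowest.

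In these libraries long transcripts had lower ratios than short ones, so each member was also read beside genes of its own length. The median of all genes was -0.09 for transcripts of 2 to 3 kb, the class of *Nr1d1* (2.721 kb), where 0.836% of 3111 genes were at least 2-fold lower. It was -0.40 for 4 to 6 kb, the class of *Per1* (4.671 kb), *Per2*, *Per3* and *Nr1d2*, where 5.66% of 3464 genes were. For 6 to 10 kb, the class of *Clock* (9.744 kb), it was -0.65 with 20.9%. The log2 ratio minus a LOWESS trend on length was -0.93 for *Nr1d1* and -0.67 for *Per1*. These 2 of 10 members were at least 0.5 below the trend, as were 8.08% of the 16453 genes with a length. The difference from the trend was -0.37 for *Per2*, -0.25 for *Per3*, -0.22 for *Cry2*, -0.13 for *Dbp* and -0.06 for *Arntl*, whereas *Clock* lay 0.32, *Nr1d2* 0.24 and *Cry1* 0.15 above it. In all, 7 of 10 members lay below the trend, against 48.9% of all genes, and their median was -0.18 relative to it. *Clock*, the longest transcript of the list, thus stood above genes of like length although its ratio was below the median of all genes.

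**Figure D4:**
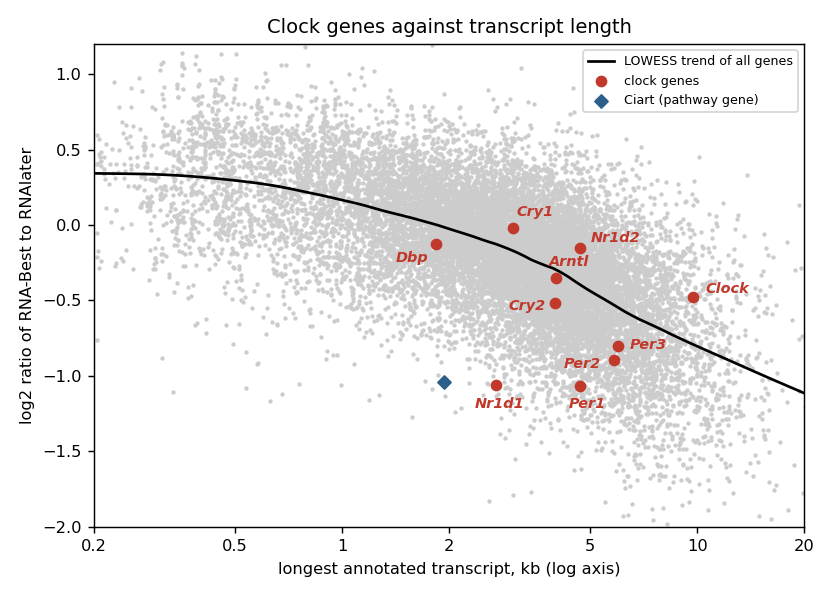
Log2 ratio of RNA-Best to RNAlater (vertical axis) against the length of the longest annotated transcript (horizontal log axis) for genes whose mean reached 1 CPM (grey, the few beyond the axes not drawn), with their LOWESS trend (line), the 10 clock genes (red) and the clock repressor gene *Ciart* (blue diamond). *Nr1d1* and *Per1* stand at -0.93 and -0.67 relative to the line and *Clock* 0.32 above it.

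Of 30 further genes of the pathway, in 8 groups by role, all reached a mean of 1 CPM and 28 had a log2 ratio below 0, against 67.0% of all genes. For 27 of them the interval lay wholly below 0, against 51.2%. The median was -0.43. At least 2-fold lower was 1 of the 30, no larger a share than the 4.99% of all genes, and none was at least 2-fold higher. Under TMM and DESeq2 scaling 22 of 30 were below 0, against 51.4% and 50.4% of all genes. Below the length trend lay 16 of 30, a share near the 48.9% of all genes, and the median relative to that trend was -0.01.

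The gene past 2-fold was *Ciart* (CHRONO), a repressor of the CLOCK and ARNTL pair and itself under clock control. It had 69.5 counts, or 1.29 CPM, in RNA-Best and 143 counts, or 3.18 CPM, in RNAlater, and its log2 ratio of -1.04 had an interval of -1.73 to -0.87 that reaches inside 2-fold. With a transcript of 1.939 kb it stood at -1.03 relative to the length trend. Another repressor of this group, *Bhlhe40* (DEC1), singled out after its values were seen, had 199 and 349 CPM (log2 ratio -0.81, interval -0.85 to -0.78), and stood at -0.63 relative to the trend. *Bhlhe41* (DEC2) was the highest of the group at -0.41 and lay 0.15 above the trend. All 4 genes of this group of repressors were below the median of all genes under column total scaling, where 50.0% of genes lie. This was not particular to the group: 22 of the 30 pathway genes were, with every D-box factor, ROR receptor and clock output listed. Of the repressors, 2 were at least 0.5 below the length trend, against 8.08% of all genes.

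Among the D-box factors, *Hlf*, a paralog of *Dbp*, had 25.1 CPM with RNA-Best against 44.1 CPM with RNAlater (log2 ratio -0.80). *Nfil3*, the repressor that competes for the same sequence, had 117 and 136 CPM (log2 ratio -0.21). Of the ROR receptors, which activate *Arntl* through the element that the NR1D receptors also bind, *Rora* had 26.9 and 43.3 CPM (log2 ratio -0.68) and *Rorb* 11.5 and 15.6 CPM (log2 ratio -0.42). Given their length neither was low: *Rora* lay 0.16 and *Rorb* 0.34 above the trend.

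The kinases that phosphorylate PER and other clock proteins spanned -0.87 for *Gsk3b* (52.3 and 95.7 CPM) to -0.10 for *Csnk1a1* (321 and 344 CPM). *Gsk3b* has a transcript of 8.303 kb and stood at -0.15 relative to the trend. In the group of enzymes of ubiquitin transfer and removal, *Usp2* was lowest at -0.57 (23.5 and 35.3 CPM) and *Fbxl21* highest at 0.03, with an interval from -0.28 to 0.35. The cofactors ran from *Ncor1*, the corepressor recruited by NR1D receptors, at -0.99 (59.6 and 119 CPM), to its partner enzyme *Hdac3* at 0.07 (84.4 and 80.5 CPM). *Ncor1* has a transcript of 9.037 kb and stood at -0.23 relative to the trend. Outputs of the clock ran from *Noct*, at -0.78 (62.1 and 107 CPM), to *Nampt*, at -0.23 (110 and 128 CPM), and the former lay on the length trend, 0.01 above it.

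Markers of other cells in the pool were also lower in RNA-Best, with summed levels of 201 against 443 CPM for 5 endothelial genes, 525 against 687 for 5 of pericytes and fibroblasts, 105 against 191 for 5 of the posterior lobe and 142 against 222 for 5 of stem and folliculostellate cells. Every gene of these 4 lists had a log2 ratio below 0 under column total scaling, against 67.0% of all genes. The highest stood at -0.18, which the shifts of TMM and DESeq2 would bring to about 0. Relative to the length trend the medians of the 4 lists, in the order above, were -0.89, -0.53, -0.16 and -0.51. Macrophage markers were mixed, with 3 of 5 below 0 and sums of 143 and 135 CPM. The 5 erythroid genes were all higher, at 3200 and 1130 CPM. Their median transcript length was 0.699 kb, and only 22.8% of all genes of up to 1 kb were below 0. Relative to the length trend the medians were -0.35 for the macrophage and 0.70 for the erythroid markers. No marker was at 0 in either library. Clock genes are active in most nucleated cells, and in bulk RNA fewer cells of a type and less RNA per cell cannot be told apart. The part of cell makeup in the clock gene ratios was not tested.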

How the data were processed

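Poly(A) RNA of acutely dissociated mouse pituitary cells was sequenced as single reads of 51 bp, 1 library for each stabilizer, and samples were grouped by the stabilizer in the labels. The authors deposited 1 table of estimated counts per gene, not normalized. The submitters' processing notes name STAR 2.5.1b, featureCounts 1.5.0-p1 and mm10. About 35.4% of RNA-Best and 34.9% of RNAlater values above 0 were not whole, so some reads were divided between features, and 6 of the 10 clock genes had whole counts in both libraries. The options for strand and divided reads are not given in the sources used here.

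Of the 47069 identifiers, 46574 (98.9%) matched GENCODE M21 (GRCm38), which gave symbols, positions and transcript lengths. Counts were scaled to CPM by column total. Log2 ratios used a pseudocount of 0.5 CPM, which understates the ratio of weak genes, and a mean of at least 1 CPM. Exact conditional binomial (Clopper-Pearson) and Poisson intervals of 95% used counts rounded to whole numbers and no pseudocount. A count of 0 would allow 3 counts, which is 0.0556 CPM with RNA-Best against 0.0668 CPM with RNAlater. The study's linear model needs replicates and was not used. Trends used LOWESS with a span of 0.2 (statsmodels 0.14.6). Other software was Python 3.11.15, scipy 1.17.1, pandas 2.3.3, R 4.3.3, edgeR 4.0.16 and DESeq2 1.42.0, the latter 2 for scaling only. The steps were tested on simulated data.

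The clock genes, the pathway and marker lists and the alternatives were chosen with earlier results of these data known. All 10 clock genes are named. Of the pathway genes, those named are the highest and lowest of each group, those in a ratio between paralogs and those at least 2-fold different, and *Bhlhe40* was added after its values were seen. A gene of the pathway list is not reported here and was left out of its counts.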

Additional observations from a re-analysis of the deposited data

How the results depend on the processing

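No paired analysis was possible because each stabilizer had 1 library. In that design nothing can show how far either ratio would vary between pools of cells, and counting intervals were widest for the weakly counted *Ciart*, *Arntl2*, *Fbxl21* and *Npas2*.

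Of the 10 alternatives for each ratio, *Per1*, *Per2*, *Per3*, *Cry2*, *Nr1d1* and *Arntl* were below 0 in all 10. Some alternatives could not move a gene's own ratio, since they change only which genes are compared. These were no filter on low values, a mean of at least 10 CPM and protein-coding genes only. *Per1* ranged from -1.07 to -0.67 and *Nr1d1* from -1.08 to -0.87. The number of clock genes at least 2-fold lower was 0 under TMM, DESeq2 size factors, the total without the 2 most abundant genes and the length trend. It was 2 under the other 6, which include those that could not move a gene's own ratio. The median of the clock genes was -0.32 under TMM, -0.31 under DESeq2, -0.37 without the 2 most abundant genes and -0.18 relative to the length trend. That of the other pathway genes was -0.26, -0.25, -0.31 and -0.014, and -0.32 with a pseudocount of 5 CPM. Relative to all genes, the medians moved to -0.43 for the clock genes and -0.36 for the other pathway genes without a filter on low values, and to -0.19 and -0.022 with the length trend removed. The count of other pathway genes at least 2-fold lower was 0 instead of 1 under the 3 scalings, with 5 CPM added and with a mean of at least 10 CPM, which leaves out *Ciart*. The count of these genes below 0 was 16 of 30 with the length trend removed.

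Among the changes of sign, *Cry1* stood at 0.15 under TMM, 0.16 under DESeq2, 0.10 without the 2 most abundant genes and 0.15 relative to the length trend, *Dbp* at 0.04 and 0.05 under TMM and DESeq2, and *Arntl2* at 0.06, 0.07, 0.03 and 0.08 under the same 4 settings as *Cry1*. The counting intervals of these 3 genes include 0. *Nr1d2* stood at 0.022 under TMM, 0.034 under DESeq2 and 0.24 relative to the length trend, where *Clock* stood at 0.32. *Csnk1a1* stood at 0.072 under TMM, 0.084 under DESeq2, 0.026 without the 2 most abundant genes and 0.21 relative to the trend. Relative to the trend *Bhlhe41* stood at 0.15, *Nampt* at 0.15, *Noct* at 0.013, *Rora* at 0.16, *Rorb* at 0.34 and the median of all genes at 0.0085. The count of all genes at least 2-fold lower was 824, and 438 under TMM, 423 under DESeq2, 333 with 5 CPM added and 93 relative to the trend. The median transcript length put *Nr1d1* to *Nr1d2* at a log2 ratio of -1.25 in RNA-Best and -0.33 in RNAlater, and *Cry2* to *Cry1* at -1.64 in RNAlater. It left the first gene higher in 3 of 8 pairs in RNAlater instead of 5. The exon union put *Cry2* to *Cry1* at -0.34 and *Dbp* to *Arntl* at 0.059 in RNAlater. The cause of these changes was not tested.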
